A study of Rattus norvegicus with 4 samples.

Results

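The Eph receptors are the largest family of receptor tyrosine kinases, and the 10 family members listed for this account were looked up by gene symbol in the read counts of cultured rat Schwann cells (SCs). Of these, 9 had counts among the 17949 genes of the table, 5 of class A (Epha2, Epha3, Epha4, Epha5 and Epha7) and 4 of class B (Ephb1, Ephb2, Ephb3 and Ephb6), and all 9 passed the filter on low counts. The expression of Ephb4 was not analysed here.

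RNA-seq was performed on primary SCs from rat sciatic nerve, the glia that wrap and myelinate peripheral axons, 48 h after infection. One group received the lentivirus that overexpresses the Egr2-AS, an antisense RNA of the Egr2 promoter (Lenti-AS, n = 2). The control group received the backbone virus with a green fluorescent protein (Lenti-GFP, n = 2), and the Egr2-AS virus has a red reporter in its place. Both groups were grown in 10% serum with 4 μM forskolin and 5 ng/ml heregulin-β1, and the strain and age of the rats are not given in the sources used here. Whether the replicates came from separate cultures is not spelled out beyond the word biological, so p-values measure the spread between these samples.

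Ephrins, the ligands of Eph receptors, sit on the surface of neighbouring cells, and binding sends a forward signal into the receptor's cell and a reverse signal into the ligand's cell. Class A receptors mainly bind ephrin-A ligands, which are anchored by lipid, and class B receptors mainly bind ephrin-B ligands, which cross the membrane, while EphA4 binds both kinds. In the injured nerve, EphB2 on SCs meets ephrin-B on fibroblasts, and the signal runs through Sox2 to N-cadherin and gathers the SCs into cords that guide regrowing axons.

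The comparison asked whether overexpression of the Egr2-AS went with a change in Eph receptor transcripts. The counts summed to between 74024323 and 96185890 per sample, and values are given as CPM, counts per 1000000 counts of a library, after TMM scaling, which are comparable between samples for 1 gene but not between genes, since no exon lengths were used. A gene was called when edgeR's quasi-likelihood test gave an adjusted p (Benjamini-Hochberg, over all 12446 genes tested) under 0.05 and the fitted change reached 1.3-fold. Of the SC markers, S100b, a calcium-binding protein gene, had at least 2027 CPM in every sample, and Erbb3, the receptor for heregulin with Erbb2, at least 448.1 CPM, but Gap43, a growth-associated marker on the same list, had at most 25 counts. The Lenti-AS samples were less alike than the Lenti-GFP samples, with 188 against 9 of 10251 genes more than 2-fold apart within the group. The globin genes of red blood cells took 0.305% of the counts in Lenti-AS 2 and at most 0.000665% in the other samples. Col1a1, a collagen gene of fibroblasts and SCs, had 2131 CPM in Lenti-AS 1 against 290.1 CPM in Lenti-AS 2.

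Of the 9 Eph receptors edgeR called 0, higher or lower, where it called 1.98% of all genes tested (1.31% higher in Lenti-AS and 0.667% lower). At an unadjusted p under 0.05 there were 2 receptors, Epha4 and Epha7, both lower in Lenti-AS, a share of 22.2% against 21.8% of all genes (9.37% lower). DESeq2, the tool the study's methods name, called 1 receptor, Epha4, as lower, where it called 6.25% of the genes with an adjusted p in either direction and 1.39% as lower, and it gave no adjusted p for Epha5 and Ephb1. limma-voom called 0 receptors and 1.89% of all genes. The groups did not overlap for 3 of the 9 receptors, Epha2, Epha4 and Epha7, all lower, against 54.9% of all genes in either direction and 27.2% lower. The median log2 fold change of the 9 receptors was -0.0682, with a range from -0.61 to 0.44, beside 0.0071 for all genes. It was -0.16 over the 5 class A receptors and 0.0397 over the 4 class B receptors, a difference between classes that was not tested.

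**Figure D1:**
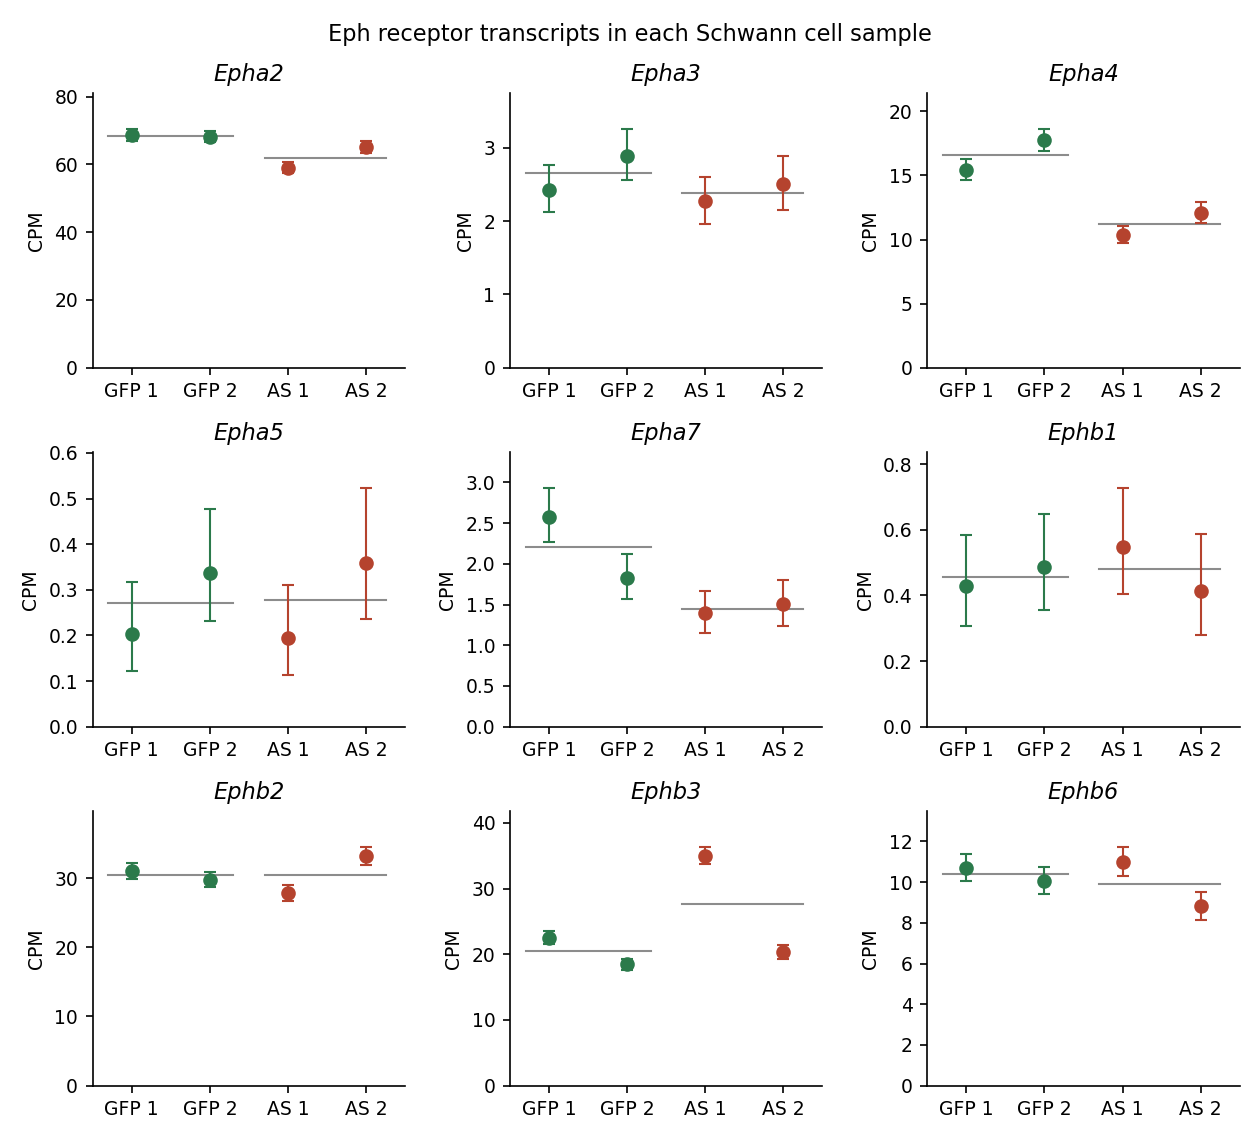
CPM (y axis, linear and starting at 0, a separate scale for each gene) of the 9 Eph receptors in the 2 Lenti-GFP samples (green) and the 2 Lenti-AS samples (red), with 95% Poisson intervals that cover counting error only and grey lines at the group means. Both Lenti-AS samples lay below both Lenti-GFP samples for Epha2, Epha4 and Epha7, and Ephb3 was high in Lenti-AS 1 alone.

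Among the class A receptors, Epha4 had the smallest p-value. EphA4 can bind ephrins of either class. It had 1442 and 1681 counts in the Lenti-GFP samples and 908 and 909 counts in the Lenti-AS samples. This corresponded to 15.4 and 17.7 CPM against 10.4 and 12.1 CPM. Each sample with the Egr2-AS virus thus lay below each control, with a gap wider than the spread within either group. The means were 16.6 ± 1.62 CPM (SD, n = 2) and 11.2 ± 1.22 CPM (SD, n = 2), a log2 fold change of -0.56 (standard error 0.12, 95% interval -0.86 to -0.27), that is, a level 1.48-fold lower in Lenti-AS. The unadjusted p was 0.00327, at place 521 of the 12446 genes, and the adjusted p was 0.0781 by edgeR's quasi-likelihood test, so Epha4 was not called. With DESeq2 the adjusted p was 0.0031 at a log2 fold change of -0.57, whereas the 7 remaining tests, scalings, filters and designs that kept all 4 samples gave adjusted p-values from 0.0607 to 0.104. Without Lenti-AS 1 the log2 fold change was -0.46 (adjusted p = 0.00407), without Lenti-AS 2 it was -0.68 (adjusted p = 2.24e-05), and Epha4 was called lower in both, as were 2.26% and 2.07% of all genes, with the spread taken from the 2 Lenti-GFP samples. Without Lenti-GFP 1 or Lenti-GFP 2 it was -0.66 and -0.46, with adjusted p-values of 0.365 and 0.640. An exact permutation test of 2 samples against 2 cannot give a two-sided p under 0.333.

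A ratio of counts within a library needs no scaling between libraries. The counts of Epha4 divided by those of Ephb2, the class B receptor whose fitted change was nearest to 0, were 0.498 and 0.596 in Lenti-GFP and 0.372 and 0.365 in Lenti-AS. Divided by those of Epha2 they were 0.225 and 0.260 in Lenti-GFP and 0.176 and 0.186 in Lenti-AS. By either ratio the Lenti-AS samples lay below the Lenti-GFP samples. The genes of these ratios were chosen after their values had been seen, so the direction was fixed by the choice and is a description only.

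Epha7, an ephrin-A receptor of the developing nervous system, had the lowest fitted fold change of the family and far fewer counts than Epha4. It had 241 and 173 counts in Lenti-GFP and 122 and 113 counts in Lenti-AS, or 2.58 and 1.83 CPM against 1.39 and 1.5 CPM. The Lenti-AS samples were below both Lenti-GFP samples, but the 0.756 CPM between the Lenti-GFP samples was more than the 0.322 CPM that parted the groups. The log2 fold change was -0.61 (standard error 0.24, 95% interval -1.20 to -0.0136). The unadjusted p was 0.0463, and adjusted over all genes it was 0.222 by edgeR and 0.237 by DESeq2. Without Lenti-GFP 1 the log2 fold change was -0.33 and without Lenti-GFP 2 it was -0.83, so its size rested on which control was kept.

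Epha2, a receptor with ephrin-A1 as its main ligand, had the most counts of the family, between 4889 and 6461 per sample. It had 68.7 and 68.2 CPM in Lenti-GFP and 58.9 and 65.0 CPM in Lenti-AS. The Lenti-GFP samples were nearly equal, and Lenti-AS 2 lay 3.13 CPM below the nearer of them while the Lenti-AS samples differed by 6.09 CPM. The log2 fold change was -0.14 (95% interval -0.33 to 0.0448, adjusted p = 0.330 by edgeR), so a fall below 0.796-fold lay outside the interval. Without Lenti-AS 1 the log2 fold change was -0.0734 (adjusted p = 0.471), and without Lenti-AS 2 it was -0.22 (adjusted p = 0.0150), short of the 1.3-fold required for a call.

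Epha3 and Epha5, ephrin-A receptors best known from axon guidance, showed no separation of the groups. Epha3 had 2.43 and 2.89 CPM in Lenti-GFP and 2.27 and 2.50 CPM in Lenti-AS (log2 fold change -0.16, 95% interval -0.62 to 0.30, adjusted p = 0.657 by edgeR). The log2 value ranged from -0.27 without Lenti-GFP 1 to -0.0273 without Lenti-GFP 2, and it was -0.0903 without Lenti-AS 1. Epha5 was near the limit of the depth, with 19 and 32 counts in Lenti-GFP and 17 and 27 counts in Lenti-AS. Its interval ran from -1.18 to 1.21 on the log2 scale, so even a 2-fold change in either direction lay inside the interval.

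The upstream sequences of Epha2 and Epha7 are shown because these were the receptors, with Epha4, whose groups did not overlap. RefSeq's GRCr8 table held a sequence for 9 of the 10 listed receptors, and Epha4 was not among them. The sequences below run 5′ to 3′ over the 250 bases before the gene's start, on the plus strand, and capitals mark CpG dinucleotides. Epha2 covers chr5:158888379-158888628 and Epha7 chr5:47771643-47771892 of GRCr8, a later build than the rn6 assembly of the counts.
Epha2: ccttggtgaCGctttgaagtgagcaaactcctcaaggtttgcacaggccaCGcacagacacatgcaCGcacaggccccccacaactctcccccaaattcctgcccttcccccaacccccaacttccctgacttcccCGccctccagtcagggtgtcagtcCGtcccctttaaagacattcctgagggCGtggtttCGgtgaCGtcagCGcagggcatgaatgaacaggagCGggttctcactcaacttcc
Epha7: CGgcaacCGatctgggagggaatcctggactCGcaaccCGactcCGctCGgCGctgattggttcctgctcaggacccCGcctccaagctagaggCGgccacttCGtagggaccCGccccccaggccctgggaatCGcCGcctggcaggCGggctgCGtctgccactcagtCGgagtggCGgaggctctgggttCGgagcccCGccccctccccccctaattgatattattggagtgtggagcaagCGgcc
Epha7 held 20 CpG dinucleotides in this window and Epha2 held 10, beside a median of 5 over the 33469 windows of the table. At least as many were held by 16.7% and 35.9% of all windows. Over the 9 receptors with a sequence the numbers ran from 8 in Epha5 to 22 in Ephb2, a receptor whose groups overlapped. Searched on both strands, the EGR letters GCGNGGGCG, the AP-1 letters TGANTCA and the YY1 letters CCATNTT had no match in the windows of the 8 receptors with counts. The window of Ephb4, which was not among those 8, held 1 match to the YY1 letters. Over all windows 4.29%, 6.34% and 13.8% held a match. The missing matches say only that these letters do not occur in the windows of the 8 receptors.

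Among the class B receptors, Ephb2, the receptor of the SC response to fibroblast ephrin-B, did not differ between the groups beyond their spread. It had 31.0 and 29.8 CPM in Lenti-GFP and 27.8 and 33.1 CPM in Lenti-AS, with at least 2439 counts in every sample. The Lenti-AS samples lay on either side of the Lenti-GFP samples. The log2 fold change was 0.0036 with a 95% interval from -0.23 to 0.24, so changes of more than 1.18-fold up or below 0.851-fold lay outside the interval (adjusted p = 0.987 by edgeR).

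Further along this route, Sox2, the transcription factor downstream of EphB2 in SCs, had 320.8 and 332.9 CPM in Lenti-GFP and 356.7 and 355.2 CPM in Lenti-AS. Cdh2, which encodes N-cadherin, had 198.9 and 210.3 CPM in Lenti-GFP and 217.6 and 214.7 CPM in Lenti-AS. Both genes lay slightly above the controls in both Lenti-AS samples, which was so for 27.7% of all genes tested, and neither was called. The log2 fold changes were 0.12 (95% interval -0.0035 to 0.25, adjusted p = 0.238) and 0.0792 (95% interval -0.0557 to 0.21, adjusted p = 0.437), both from edgeR. Of the 6 genes listed from Sox2 to N-cadherin, 4 were fitted higher and 2 lower. Ctnnb1, the β-catenin gene, had 1567 and 1594 CPM in Lenti-GFP and 1295 and 1329 CPM in Lenti-AS. Its log2 fold change of -0.27 was short of 1.3-fold (adjusted p = 0.0642 by edgeR and 0.000134 by DESeq2). Ctnnb1 was chosen after its values had been seen.

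Ephb3, a receptor for ephrin-B ligands, had the highest fitted fold change of the family, and this rested on 1 library. It had 2106 and 1749 counts in Lenti-GFP and 3071 and 1530 counts in Lenti-AS, or 22.6 and 18.5 CPM against 35.0 and 20.4 CPM. Lenti-AS 1 stood above all other samples, while Lenti-AS 2 lay between the Lenti-GFP samples. The fitted change was 0.44 on the log2 scale (standard error 0.25, 95% interval -0.18 to 1.05, adjusted p = 0.358 by edgeR). Without Lenti-AS 1 it was -0.0111 (adjusted p = 0.957), and without Lenti-AS 2 it was 0.77 (adjusted p = 8.97e-08), a call higher that 10.2% of all genes shared in that fit. Other genes were high in Lenti-AS 1 as well. Sox10, a transcription factor of the SC lineage, had 162.8 CPM in that library and between 61.2 and 77.1 CPM in the other samples. Sox10 was chosen after its values had been seen. The fibroblast list summed to 5180 CPM in Lenti-AS 1 and to between 3173 and 3923 CPM in the others. Within it, Col1a1 had 2131 CPM in Lenti-AS 1 and 290.1 to 840.5 CPM in the others, and Col1a2 339.6 against 119.6 to 155.0 CPM. Col14a1 went the other way and was lowest in Lenti-AS 1, at 2697 CPM. The part of these genes in the Ephb3 value was not tested.

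Ephb6, whose kinase domain lacks catalytic activity, had 10.7 and 10.1 CPM in Lenti-GFP and 11.0 and 8.81 CPM in Lenti-AS (log2 fold change -0.0682, 95% interval -0.40 to 0.26, adjusted p = 0.801 by edgeR). The Lenti-AS samples again enclosed the controls. Ephb1 had few counts, 40 and 46 in Lenti-GFP and 48 and 31 in Lenti-AS, and the groups overlapped (log2 fold change 0.0759, 95% interval -0.72 to 0.87, adjusted p = 0.915 by edgeR).

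**Figure D2:**
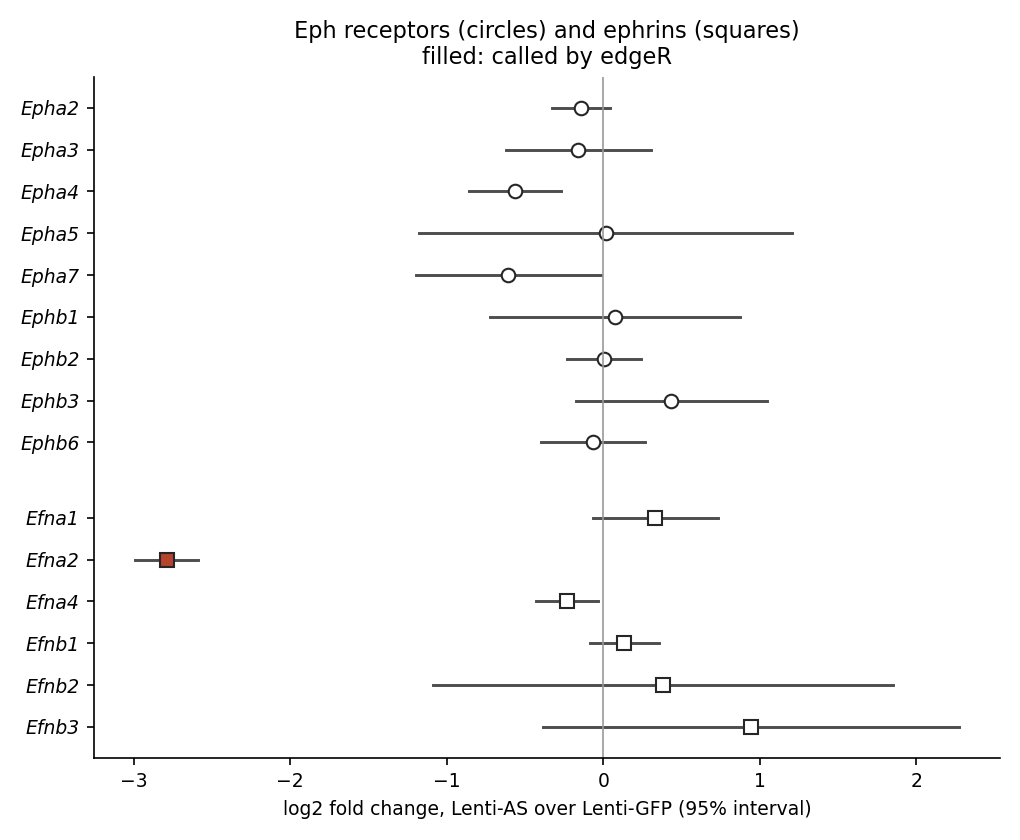
Fitted log2 fold change of Lenti-AS over Lenti-GFP (x axis) with 95% intervals from edgeR's quasi-likelihood fit, for the 9 Eph receptors (circles) and the 6 ephrins tested (squares). Only Efna2, at -2.79, was called (filled), and the intervals of Epha4, Epha7 and Efna4 also lay below 0.

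Of the 8 ephrins listed as ligands, 7 had counts, 6 were tested and 1 was called by edgeR, beside the 1.98% of all genes called. Efna2, an ephrin-A ligand of the class A receptors, fell from 28.0 ± 0.0291 to 4.05 ± 0.0127 CPM (SD, n = 2 each), 6.91-fold lower, with the smallest p-value of all genes tested (adjusted p = 0.000605 by edgeR). Set beside it, the class A receptor with the smallest p-value, Epha4, was 1.48-fold lower.

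The other ephrins were not called, and the groups of Efna1, Efna2, Efna4 and Efnb3 did not overlap, where 54.9% of all genes did not. Efna4 had 16.7 and 17.6 CPM in Lenti-GFP and 14.3 and 14.9 CPM in Lenti-AS, without overlap (log2 fold change -0.23, adjusted p = 0.181 by edgeR). Efna1, the main EphA2 ligand, had 2.80 and 2.75 CPM in Lenti-GFP and 3.30 and 3.68 CPM in Lenti-AS, also without overlap but in the opposite direction (log2 fold change 0.33, adjusted p = 0.295). Efnb1, a class B ligand, had between 18445 and 25674 counts per sample and overlapped between the groups, with 242.0 and 248.2 CPM in Lenti-GFP and 292.9 and 245.4 CPM in Lenti-AS (log2 fold change 0.14, adjusted p = 0.419). Without Lenti-AS 1 the value for Efnb1 was 0.0012 (adjusted p = 0.990), and without Lenti-AS 2 it was 0.26 (adjusted p = 0.00161), again short of 1.3-fold. Efnb2 and Efnb3 had at most 22 and 17 counts in any sample, and Efna5 had 2 counts in Lenti-AS 2 and 0 in the other samples. Of their log2 fold changes, 0.38 for Efnb2 and 0.94 for Efnb3, the intervals were -1.09 to 1.85 and -0.39 to 2.27.

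**Figure D3:**
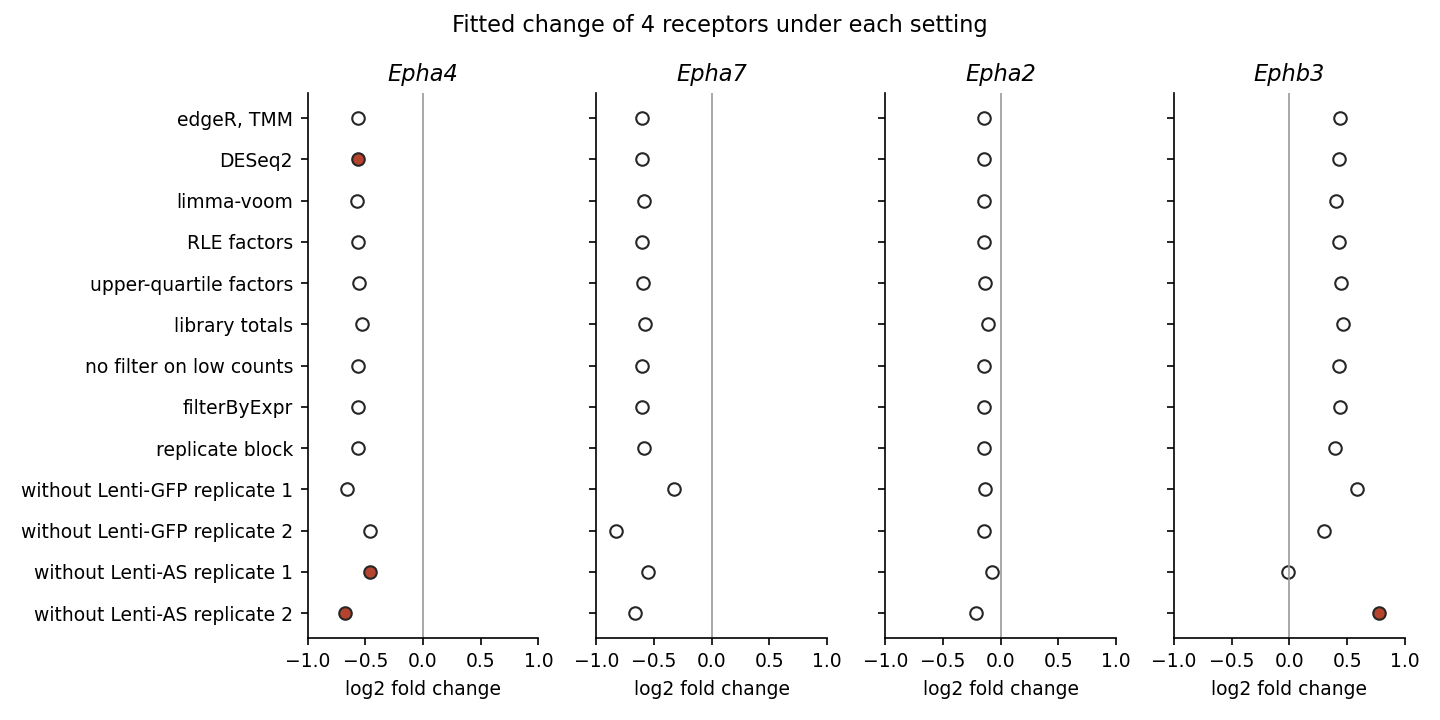
Fitted log2 fold change (x axis) of Epha4, Epha7, Epha2 and Ephb3 under edgeR with TMM and the 12 other settings (y axis), filled where the gene was called. Epha4, Epha7 and Epha2 stayed below 0 in all settings shown, Epha4 was called with DESeq2 and without either Lenti-AS sample, and Ephb3 lay between -0.0111 without Lenti-AS 1 and 0.77 without Lenti-AS 2.

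Inside the cell, Eph receptors recruit adaptors and cytoplasmic kinases, and they steer small GTPases that remodel actin. Of 75 such genes listed by role, 73 had counts and 71 were tested, and edgeR called 0. At an unadjusted p under 0.05 there were 16 of them, 10 higher and 6 lower, a share of 22.5% against 21.8% of all genes. DESeq2 called 1 gene, Rac1, and limma-voom called 0. The median log2 fold change of the 71 genes was 0.0492.

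Rac1, the GTPase that drives lamellipodia, is described for its DESeq2 call. It had 36.5 and 36.3 CPM in Lenti-GFP and 55.2 and 46.1 CPM in Lenti-AS. The Lenti-GFP samples were almost equal, and both Lenti-AS samples lay above them. The log2 fold change was 0.48 (standard error 0.0988, 95% interval 0.24 to 0.72), with an adjusted p = 0.0755 by edgeR and 0.000698 by DESeq2, which called 4.86% of the genes with an adjusted p as higher. The log2 fold change of Rac1 was 0.34 without Lenti-AS 1, short of 1.3-fold, and 0.60 without Lenti-AS 2. Without Lenti-GFP 1 or Lenti-GFP 2 it was 0.48. Without Lenti-AS 2, 4 of the listed genes were called higher, Rac1, Pak2, Limk1 and Anks1a, where 10.2% of all genes were called higher. Pak2 and Limk1, kinases downstream of Rac1 and Cdc42, lay at log2 fold changes of 0.99 and 0.96 there, against 0.63 and 0.52 with all samples. Pak2 had 9.04 CPM in Lenti-AS 1 and 4.25 to 5.02 CPM in the other samples, and Limk1 had 9.20 CPM there and 4.34 to 4.74 CPM in the others, so both, like Ephb3, were high in that library alone. These genes, too, were chosen after their values had been seen.

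By role, edgeR called none in any of the 7 groups, where it called 1.98% of all genes tested. At an unadjusted p under 0.05 by edgeR, 1550 of all 12446 genes were higher and 1166 lower, a share of 21.8%. The counts in each group at that threshold were as follows. Among 14 adaptors there were 1 higher and 3 lower, and among 13 cytoplasmic kinases 1 higher and 0 lower. Among 14 small GTPases and their regulators there were 3 higher and 1 lower, and among 5 phosphatases 1 higher and 1 lower. The 10 genes of reverse signalling held 2 higher and 0 lower, the 9 proteases and secretase subunits that cut Eph receptors and ephrins 1 higher and 0 lower, and the 6 genes from Sox2 to N-cadherin 1 higher and 1 lower. DESeq2 called Rac1 among the GTPases and 0 in the other groups.

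**Figure D4:**
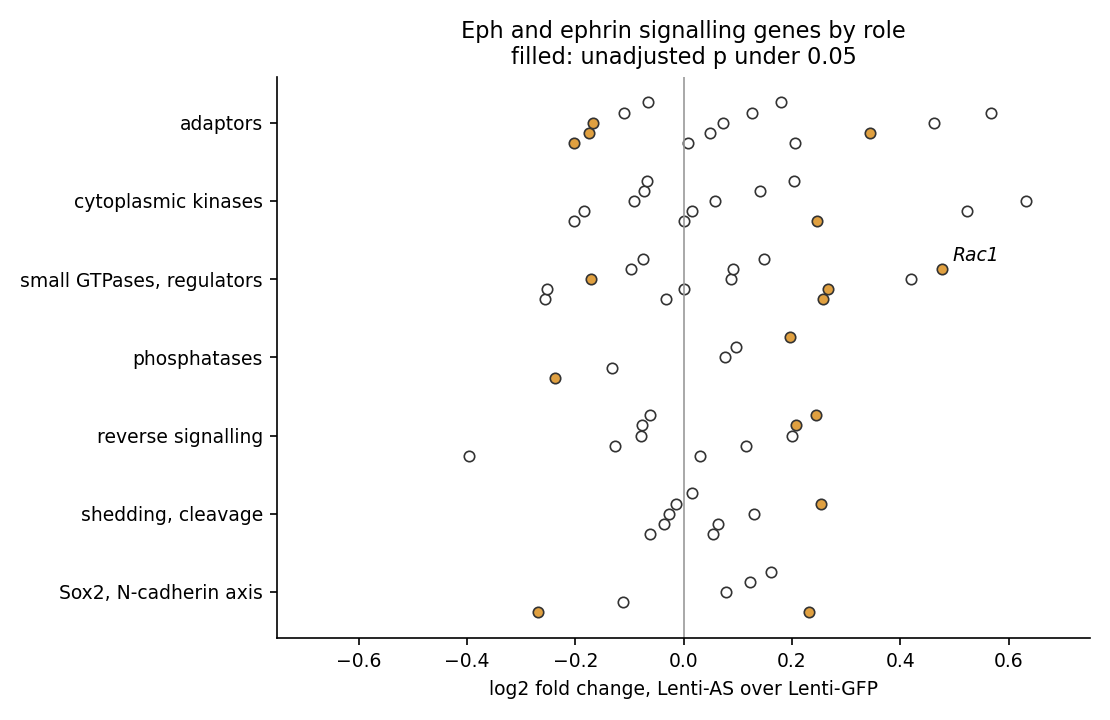
Fitted log2 fold change of Lenti-AS over Lenti-GFP (x axis) for the 71 Eph and ephrin signalling genes tested, 1 point per gene, in 7 groups by role (y axis, with points spread vertically for legibility). Filled points, 16 of 71, had an unadjusted p under 0.05, none was called by edgeR, and the points ran from -0.40 to 0.63.

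Lists of markers of other cells were read in the same samples, since in bulk RNA fewer cells of a type and less RNA per cell cannot be told apart. The 9 endothelial markers summed to 25.9 and 25.6 CPM in Lenti-GFP and 20.3 and 19.5 CPM in Lenti-AS, in the same direction as Epha4. Most of this was Tek, an angiopoietin receptor, with 19.8 and 20.2 CPM against 15.3 and 14.7 CPM (adjusted p = 0.0559 by edgeR). Of all genes tested, 27.2% were likewise lower without overlap. DESeq2 called Tek lower (adjusted p = 0.00324), as it did Epha4 and 1.39% of the genes with an adjusted p. Egfl7 had between 3.58 and 4.63 CPM, the other 7 markers lay under 1 CPM in all samples, Vwf among them with at most 0.492 CPM, and the defining marker Pecam1 had at most 0.354 CPM.

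The 8 macrophage markers summed to 3.52 and 3.81 CPM in Lenti-GFP and 4.30 and 4.60 CPM in Lenti-AS. They were led by Csf1r with 1.87 to 2.27 CPM, Cd68 with 1.18 to 1.84 CPM and Cd14 with at most 0.401 CPM. The 6 pericyte markers, led by Pdgfrb, Cspg4 and Acta2, summed to 267.2 and 240.1 CPM in Lenti-GFP and 229.1 and 284.1 CPM in Lenti-AS. Nearly all of this was Pdgfrb, with 224.5 to 279.0 CPM. Cspg4 had at most 4.14 CPM and Acta2 at most 1.11 CPM, and the other 3 markers lay under 1 CPM in all samples. The 7 neuron markers, led by Elavl4, Slc17a6 and Syt1, summed to at most 0.412 CPM in any sample.

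The 10 fibroblast markers were led by Col14a1 with 2697 to 3057 CPM, Col1a1 and Col1a2, and their sums in Lenti-AS lay on either side of those in Lenti-GFP. The fibroblast markers Thy1, Dcn and Lum had at most 3 counts in any sample. The 5 globins, led by Hbb, Hbb-b1 and Hba-a1, summed to 3001 CPM in Lenti-AS 2 and to at most 6.61 CPM in the other samples. The 9 SC markers reported here summed to 4174 and 4179.5 CPM in Lenti-GFP and 4849 and 4583 CPM in Lenti-AS. Over all genes tested, edgeR called 1.98%, with 0.667% lower. One SC marker was called, Gfra3, a co-receptor of the neurotrophic factor artemin, with 50.4 and 48.3 CPM in Lenti-GFP and 19.2 and 18.8 CPM in Lenti-AS (log2 fold change -1.38, adjusted p = 0.00385 by edgeR), an adjusted p that was 0.0571 without Lenti-GFP 1 and 0.0730 without Lenti-GFP 2. The part of these markers in the receptor values was not tested.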

How the data were processed

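RNA-seq of 4 samples of rat SCs, 2 Lenti-GFP and 2 Lenti-AS, was grouped by sample titles. The authors deposited raw counts per gene on rn6, made with featureCounts over RefSeq exons from 50 bp paired-end reads. Their methods name hisat2 as the aligner and the submitters' processing notes name GSNAP. Versions and the strand setting are not given in the sources used here, so reads from overlapping antisense genes cannot be told apart. A repeated header line was dropped.

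Genes that reached 10 counts in 2 or more samples were fitted with edgeR 4.0.16 (R 4.3.3), TMM factors, glmQLFit and glmQLFTest, without a replicate term. Standard errors came from the F statistic, and 95% intervals from it and the moderated degrees of freedom. Alternatives were DESeq2 1.42.0, limma-voom (limma 3.58.1), other factors and filters, a replicate block and leaving out each sample. The fits were tested on simulated data. Both groups were simulated with the same spread per gene, so the wider spread of the Lenti-AS samples was not covered. Poisson intervals cover counting error only.

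Receptors, gene lists and cut-offs were chosen with earlier results of these data known. Named by rule were all receptors and tested ephrins, called signalling genes, Sox2, Cdh2, the 3 markers per list with the highest mean CPM and called markers. Some SC markers of the list are not reported here.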

Additional observations from a re-analysis of the deposited data

How the results depend on the processing

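The calls over all genes depended on the test. Where edgeR called 163 genes higher and 83 lower, the numbers with DESeq2 were 488 and 139, and DESeq2 called 1 receptor lower (Epha4) and 1 signalling gene higher (Rac1), where edgeR called 0 of each. The other scalings, filters and limma-voom left the counts of receptors, ephrins and signalling genes as they were. No source ties equal replicate numbers to one culture, and deviations from the group means did not pair by number (r = -0.0176 over genes). Adding the replicate block left 3 genes called higher and 14 lower, the receptors stayed at 0 and the ephrins at 1. The cause of these differences was not tested.

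Leaving out 1 sample gave 0 to 1260 genes higher and 1 to 278 lower, 0 to 1 receptors higher (Ephb3, without Lenti-AS 2), 0 to 1 receptors lower (Epha4, without either Lenti-AS sample) and 0 to 4 signalling genes higher. In these fits the lone sample is assumed to vary like the other group. The median log2 fold change of the receptors was then between -0.22, without Lenti-AS 2, and -0.0273. Values near 0 changed sign. Epha5 was at -0.0091 and Ephb2 at -0.0059 with limma-voom, and Ephb2 at -0.0012 with the block. The ranges on leaving out 1 sample were -0.48 to 0.43 for Epha5, -0.15 to 0.26 for Ephb1, -0.13 to 0.12 for Ephb2, -0.0111 to 0.77 for Ephb3, -0.24 to 0.0822 for Ephb6 and -0.53 to 0.97 for Efnb2. Library totals moved the median of all genes to 0.0390. With 2 samples per group and under 50 counts per sample for Epha5 and Ephb1, changes of these genes were poorly resolved.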

Other observations

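Receptors outside the list of 10 were also counted. Epha1 had 90 and 86 counts in Lenti-GFP and 90 and 58 counts in Lenti-AS, or 0.964 and 0.907 CPM against 1.03 and 0.772 CPM, with overlapping groups (log2 fold change -0.0534, 95% interval -0.71 to 0.60, adjusted p = 0.927 by edgeR's quasi-likelihood test). Epha10, another receptor held to lack kinase activity, had at most 8 counts in any sample and was not tested.

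The counts of Ephb3 divided by those of Ephb2 within each library were 1.26 in Lenti-AS 1, 0.614 in Lenti-AS 2 and, among the controls, 0.727 and 0.620, so the ratio was high in 1 library without any scaling between libraries. The counts of Epha7 divided by those of Ephb2 were 0.0832 and 0.0613 in Lenti-GFP and 0.050 and 0.0454 in Lenti-AS. These ratios were chosen after the values had been seen.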
